A study of Homo sapiens
Mus musculus and Homo sapiens with 21 samples.

Results

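Cells of the line H2030-BrM3, which was derived from the lung adenocarcinoma line H2030 by selection for growth in the brain, were compared as tumours under the skin of mice and as a monolayer on plastic. The comparison used 7 of the 21 RNA-seq libraries of the series, chosen by their titles and not by any measured value: 4 libraries of subcutaneous tumours and 3 of monolayer culture. The hosts were athymic nu/nu mice, which lack a normal thymus and most T cells and keep other immune cells, and they were 5 to 6 weeks old when injected. Cells for the subcutaneous tumours went in with PBS and 50% growth factor reduced Matrigel, a basement membrane extract that the monolayer cells did not receive. Tumours were cut out together with neighbouring stroma and frozen at once, whereas cultures were split every 3 to 4 days and then left alone for at least 3 days before harvest. The labels name no drug, genotype or time point that separates the libraries. The labels do not say whether the libraries of a group came from separate animals or separate cultures, so the p values below measure the spread between libraries, which may be technical. All cells come from 1 derivative of 1 line. Beside these groups, 6 libraries of brain metastases, 3 from forebrain and 3 from hindbrain, formed by the same cells after injection into the heart of such mice, served to show whether a tumour level also differed from that at another site in the mouse.

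Expression values were the deposited RPKM, that is, reads per gene scaled to transcript length and to the mapped reads of the library, rescaled here so that each library has the same sum over human genes. That sum was 1000000. All levels below are in this unit, per length, and a difference is on the scale of log2(level + 1), tumour minus monolayer, with its standard error. A fold is 2 to the power of that difference and understates the change of genes with a level under 1. A gene was called when limma's adjusted p over all genes tested was under 0.05, and "rose" and "fell" are used only of called genes. The tumour libraries held 27253282 to 48152857 human reads and the monolayer libraries 29579879 to 49599168, so depth was similar, while the 6 brain libraries were shallower at 3579907 to 6897852. Gene coordinates are those of GENCODE 44 on hg38. In bulk RNA, fewer cells of a type and less RNA per cell cannot be told apart.

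Host RNA was separated by species. Mouse reads made up 9.41 ± 3.28% of all reads in the tumour libraries (SD, n = 4) and 0.0368 ± 0.0192% in the monolayer (SD, n = 3). The exact two-sided permutation test gave p = 0.0571, the smallest that 4 against 3 libraries allow. At the rate seen in mouse forebrain and hindbrain without tumour cells, mouse RNA would account for 0.00234 to 0.00515% of the human reads of a tumour library. At this brain rate, mouse RNA would account for 1% or more of the tumour reads in 44 tested genes, of which 6 were called. No rate was measured in skin, so genes scarce in brain but active in skin stroma may receive more mouse reads than this. DCN of fibroblasts and ADIPOQ, CIDEC and LEP of fat were at 0 human reads in all 4 tumour libraries, although mouse Dcn stood at 679 to 1303 counts per 1000000 mouse reads there. For ADIPOQ, CIDEC and LEP the brain rate gave 0.0561, 0.0939 and 0.0132 expected reads over the 4 libraries together, and for DCN 0. Zeros in these fat genes therefore do not test the separation of species. Other markers had human reads. COL3A1 had 2144 to 2775 per tumour library, of which 0 were expected from mouse RNA at the brain rate. KRT10 had 379 to 536, CDH5 had 23 to 56 and FCER1G had 23 to 54. Under a level of 1 in all 4 tumours were 6 of 9 fibroblast, 6 of 8 endothelial, 6 of 7 leukocyte, 7 of 7 muscle, 6 of 6 fat and 4 of 5 epidermis markers in the human table. With the reads expected from mouse RNA subtracted, 7622 genes were called between tumours and monolayer, against 7635 without subtraction. As human transcripts, the lists of leukocyte, muscle, fat and epidermis markers summed to 2.24 to 2.61, 0.259 to 0.595, 0.313 to 0.449 and 5.47 to 6.61 in the tumours, against 1.73 to 1.94, 0.105 to 0.160, 0.309 to 0.625 and 5.55 to 6.92 in the monolayer. The endothelial list summed to 2.46 to 3.82 in the tumours, against 2.24 to 3.13 in the monolayer, and the fibroblast list, which holds COL1A1, to 225 to 257, against 62.3 to 65.3. Library 3 of the tumours stood apart in its mouse RNA, with 0.817 counts of mouse Krt1 per 1000000 mouse reads, against 928 to 1896 in the other tumour libraries, and the lowest mouse share, 4.84%.

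Carcinoma markers were present, and markers of lung lineage were mostly low. KRT8 and KRT18, the keratins of simple epithelium, and EPCAM, an epithelial adhesion protein, were well expressed (values below). KRT7 stood at 0, 0.0597, 0.0337 and 0.0421 in the tumours, against 1.46, 1.25 and 1.42 in the monolayer, and KRT19 was listed at 0 in all 7 libraries. A listed 0 does not tell a silent gene from one whose reads were not counted. NKX2-1, the transcription factor of lung epithelium, was under 0.126 in every library and too low to test, and NAPSA, an aspartic protease of alveolar cells, reached 1.18, 1.28, 1.61 and 2.32 in the tumours, against 0.545, 0.48003 and 0.624 in the monolayer.

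Cells on plastic grow attached to a stiff flat surface, in medium with ample nutrients and oxygen near that of air, and cells in a tumour meet neighbours on all sides, matrix, host cells and a supply set by vessels. The genes below report on such conditions. YAP and TEAD act at genes that respond to stiffness and spreading, ATF4 at genes for amino acid supply, the aryl hydrocarbon receptor (AHR) at genes that clear planar aromatic compounds, and hypoxia-inducible factors at genes for low oxygen. These roles are background and were not measured.

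Of 14557 genes tested, 7635 were called (52.4%), with 3136 higher (21.5%) and 4499 lower (30.9%) in the tumours. Each count of list members against the monolayer below is to be read beside these shares. With each library scaled to its nuclear genes, which leaves out the mitochondrial transcripts, the balance turned to 4170 higher and 3299 lower, since that scaling raised the median difference over all genes by 0.110; the median was -0.05 as scaled here. In 9874 genes (67.8%) the 4 tumour and 3 monolayer libraries did not overlap at all. Most calls were small: 619 genes were called with at least 2-fold higher and 564 with at least 2-fold lower levels in the tumours, and at 4-fold these counts were 71 and 69. The same test called 7276 of these genes between subcutaneous and brain tumours (50.0%), with 2739 higher (18.8%) and 4537 lower (31.2%) under the skin. Because brain and monolayer are both compared with the same 4 tumour libraries, their values are given side by side and not correlated.

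Among the genes that rose most, HAPLN1, a link protein that fixes hyaluronan to proteoglycans (chr5:83637805-83720855, minus strand), read 63.1, 35.4, 35.3 and 61.3 in the tumour libraries, against 0.161, 0.0948 and 0.193 in the monolayer (log2 difference 5.38 ± 0.31, adjusted p = 1.66e-08). It was nearly silent on plastic and went up 41.7-fold on this scale, with libraries 1 and 4 above libraries 2 and 3. Brain metastases lay between, at 2.81 to 8.55 (median 4.11). MUC16, the membrane mucin that carries the CA125 antigen (chr19:8848844-9010390, minus strand), read 49.01, 57.6, 44.7 and 49.7 in the tumour libraries, against 0.519, 0.446 and 0.859 in the monolayer (log2 difference 5.00 ± 0.29, adjusted p = 2.07e-08). Its 4 tumour values were within a narrow band, and brain metastases reached 4.31 to 15.01 (median 8.87).

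SPNS2, an exporter of sphingosine 1-phosphate (chr17:4498881-4539035, plus strand), read 32.2, 19.1, 34.4 and 31.7 in the tumour libraries, against 0.406, 0.342 and 0.418 in the monolayer, a rise of 21.4-fold. SNED1, a matrix protein with sushi and fibronectin-like domains, read 28.4, 42.1, 44.5 and 43.7 in the tumour libraries, against 0.836, 1.22 and 0.792 in the monolayer, with tumour library 1 below the other 3. SPOCK1, a secreted testican proteoglycan (chr5:136975298-137598379, minus strand), read 143, 138, 129 and 165 in the tumour libraries, against 6.58, 6.04 and 6.71 in the monolayer (log2 difference 4.28 ± 0.27, adjusted p = 7.74e-08). In these genes, whose choice required no overlap, every tumour library was far above every monolayer library, and the brain metastases were high too. The log2 difference, subcutaneous minus brain, was 0.58 ± 0.23 for SPOCK1 (adjusted p = 0.0476), -0.54 ± 0.17 for SNED1 (adjusted p = 0.0156) and -0.29 ± 0.37 for SPNS2 (adjusted p = 0.532).

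SPARCL1, a matricellular relative of SPARC, read 55.6, 90.1, 75.1 and 78.1 in the tumour libraries, against 3.25, 2.703 and 3.13 in the monolayer and VTN, the plasma and matrix adhesion protein vitronectin, 42.9, 28.4, 31.9 and 29.96 in the tumours, against 1.395, 0.9397 and 1.25 in the monolayer. CYP4F12, a fatty acid hydroxylase of a family with near-identical members that may share reads, read 22.4, 41.98, 24.4 and 36.97 in the tumour libraries, against 0.798, 0.948 and 1.02 in the monolayer. CAMK2N1, an inhibitor of the calcium and calmodulin-dependent kinase CaMKII, read 22.5, 31.5, 24.2 and 24.4 in the tumour libraries, against 0.852, 0.694 and 0.688 in the monolayer. All 4 rose by over 10-fold, from 15.2-fold in CAMK2N1 to 18.6-fold in SPARCL1. SGK1, a kinase induced by serum and glucocorticoid (chr6:134169248-134318112, minus strand), read 63.6, 67.9, 96.5 and 69.4 in the tumour libraries, against 4.19, 4.396 and 3.85 in the monolayer (log2 difference 3.85 ± 0.14, adjusted p = 1.29e-10), highest in tumour library 3. With a pseudocount of 0.1 in place of 1, the difference of HAPLN1 became 7.58 and that of MUC16 6.19, and 20 of 295 named genes moved by over 1.5 times, all to larger sizes.

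**Figure D1:**
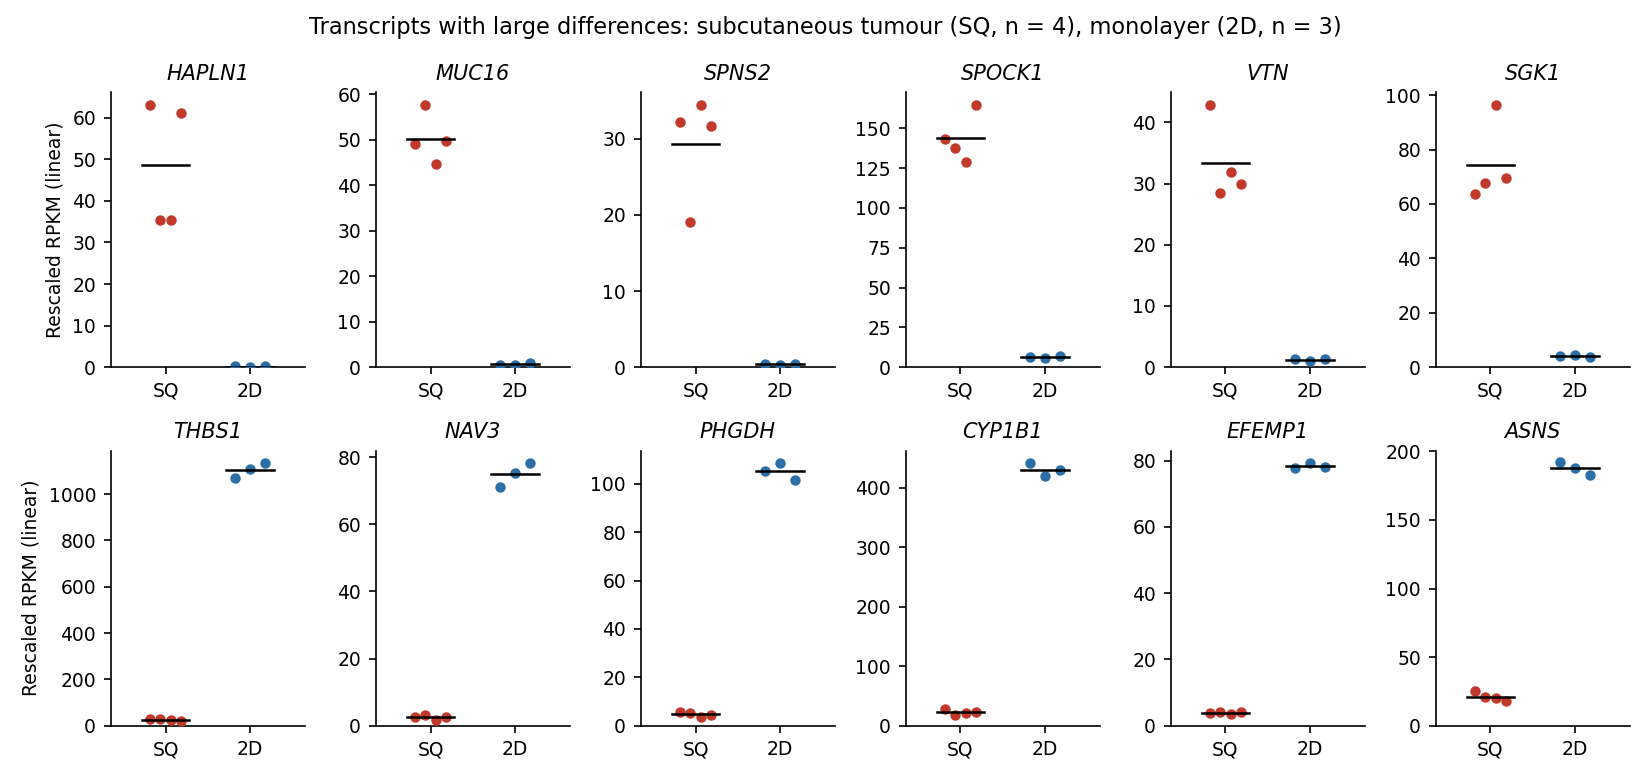
Rescaled RPKM (linear axes from 0) in each library for 6 genes that rose (upper row) and 6 that fell (lower row); points are single libraries of subcutaneous tumour (SQ, red, n = 4) and monolayer (2D, blue, n = 3), and black bars are group means. The rule that chose these 12 genes required that the groups not overlap, so the lack of overlap is not a result. For ASNS the values were 17.7 to 25.6 in tumours against 183 to 192 in the monolayer.

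Among the genes that fell most, THBS1, the matricellular protein thrombospondin-1 (chr15:39581079-39599466, plus strand), read 29.4, 27.8, 24.1 and 18.4 in the tumour libraries, against 1069, 1109.6 and 1132 in the monolayer (log2 difference -5.43 ± 0.14, adjusted p = 6.65e-12), a 43.2-fold fall. The brain metastases were nearer to the monolayer, at 465 to 839 (median 645), and the subcutaneous level was below theirs as well (log2 difference -4.66 ± 0.12, subcutaneous minus brain, adjusted p = 3.67e-12). NAV3, a microtubule-binding protein of the neuron navigator family (chr12:77324641-78213010, plus strand), read 2.62, 3.07, 1.83 and 2.66 in the tumour libraries, against 71.2, 75.3 and 78.2 in the monolayer, a 21.6-fold fall, with brain metastases at 12.3 to 22.6 (median 18.9). EFEMP1, the extracellular matrix protein fibulin-3, read 3.85, 4.14, 3.53 and 4.27 in the tumour libraries, against 77.8, 79.2 and 78.2 in the monolayer (log2 difference -4.01 ± 0.17, adjusted p = 4.38e-10). UBASH3B, a tyrosine phosphatase that acts on receptor signalling, read 10.3, 7.93, 7.497 and 7.598 in the tumour libraries, against 136, 136 and 138 in the monolayer. In NAV3, EFEMP1 and UBASH3B the subcutaneous tumours were lowest, the brain metastases intermediate and the monolayer highest.

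NIBAN1, a stress-induced regulator of translation, read 3.48, 3.15, 1.94 and 2.82 in the tumour libraries, against 55.1, 54.1 and 55.1 in the monolayer, and APLN, the peptide ligand of the apelin receptor, 0.641, 0.618, 0.516 and 0.566 in the tumours, against 20.005, 20.4 and 19.4 in the monolayer. They fell 14.7 (NIBAN1) and 13.2-fold (APLN). CA8, a carbonic anhydrase relative without catalytic activity that binds the IP3 receptor, averaged 1.73 ± 0.3996 in the tumours (SD, n = 4) and 27.8 ± 0.261 in the monolayer (SD, n = 3). GDA, the enzyme guanine deaminase, averaged 0.902 ± 0.242 in the tumours (SD, n = 4) and 15.9 ± 0.611 in the monolayer (SD, n = 3). PHGDH, CYP1B1, ANKRD1 and ASNS, which complete the 12 largest falls, belong to the groups described next.

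**Figure D2:**
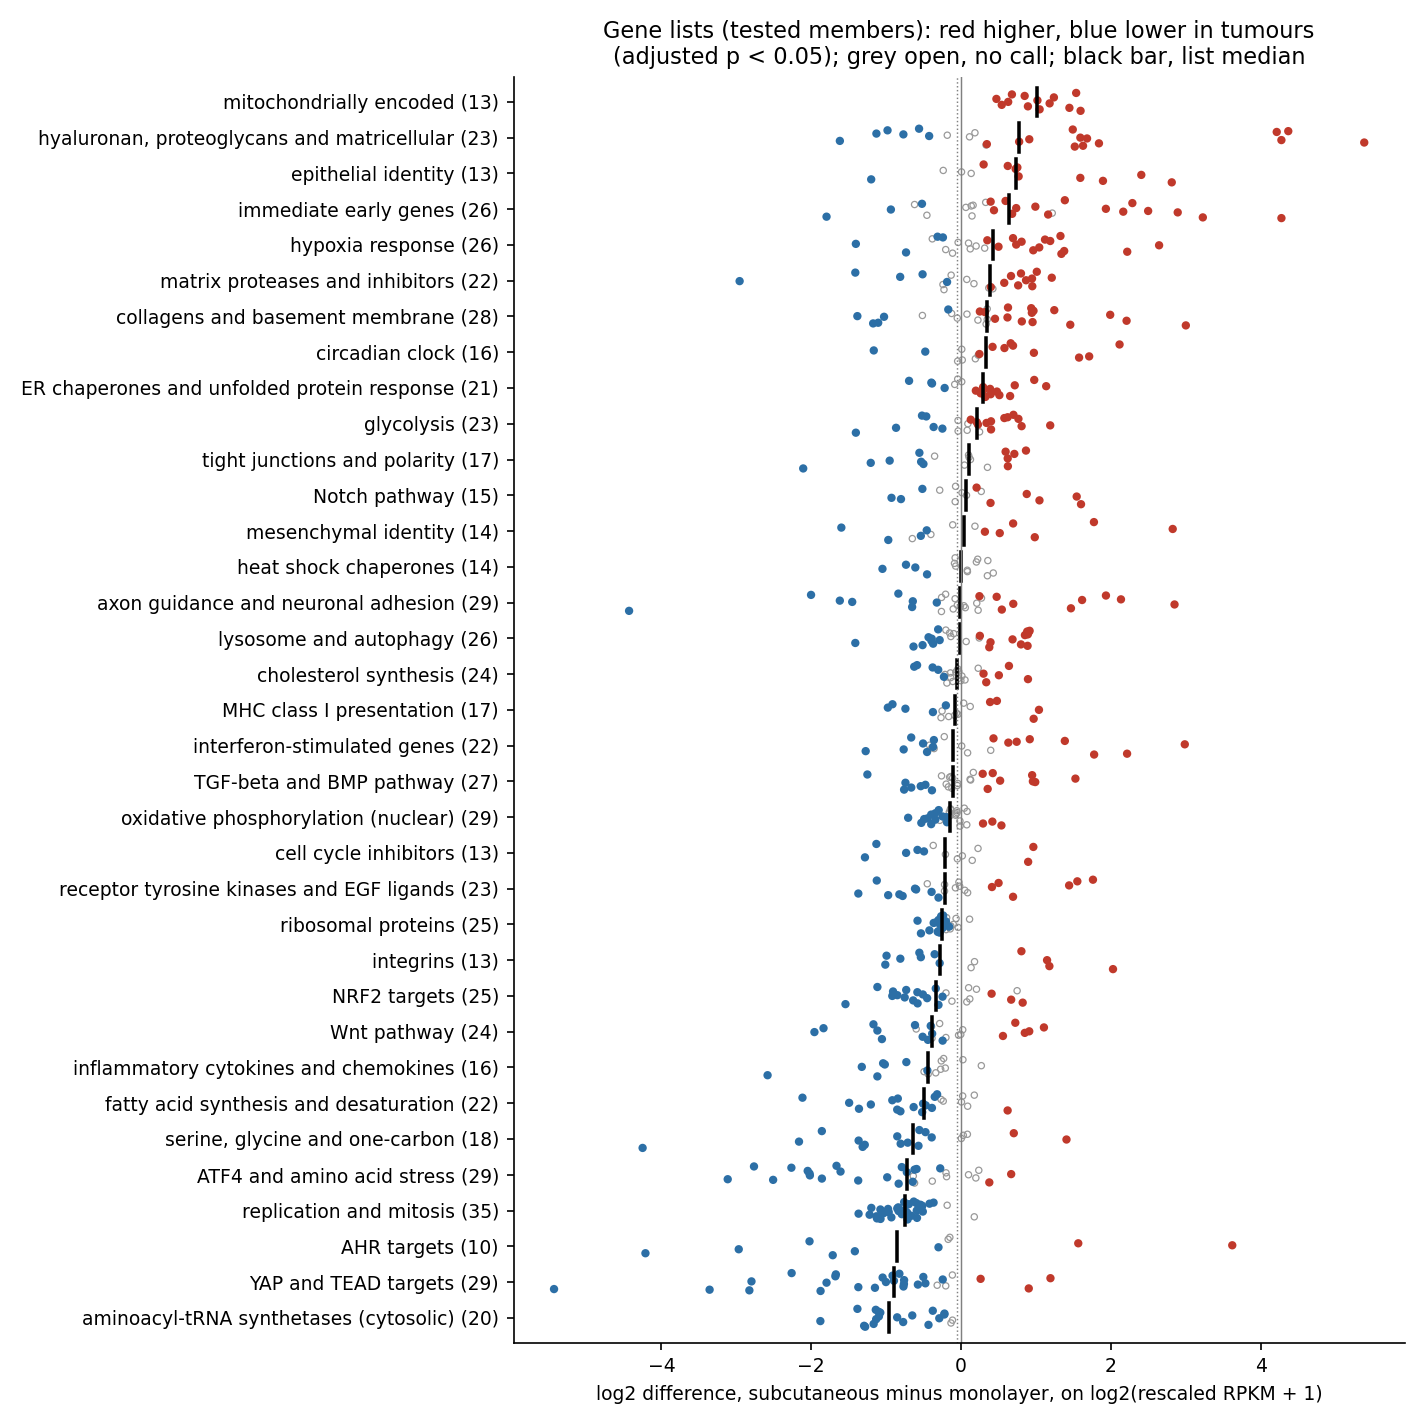
Log2 difference of each tested member of the gene lists with 10 or more tested members, subcutaneous minus monolayer; filled points were called (red higher, blue lower in the tumours), open grey points were not, black bars are list medians, and the dotted line is the median of all genes tested. Mitochondrially encoded genes stood at the top with a median of 1.02 and cytosolic aminoacyl-tRNA synthetases at the bottom with -0.97.

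Genes of the YAP and TEAD list fell in large part: 23 of 29 tested members were lower and 3 higher, with a median of -0.90, beside 30.9% lower and a median of -0.05 over all genes. TEAD factors bind the letters GGAATG, and the 250 bases before the start of THBS1 and ANKRD1, the members that fell most, are shown for that reason, on hg38 at chr15:39580829-39581078, plus strand and chr10:90921088-90921337, minus strand, with GGAATG on either strand in capitals.
THBS1: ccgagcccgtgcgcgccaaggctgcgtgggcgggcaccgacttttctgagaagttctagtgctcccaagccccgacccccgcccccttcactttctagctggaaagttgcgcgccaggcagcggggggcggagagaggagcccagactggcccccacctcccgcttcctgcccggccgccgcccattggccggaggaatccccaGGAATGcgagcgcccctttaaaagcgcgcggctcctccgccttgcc
ANKRD1: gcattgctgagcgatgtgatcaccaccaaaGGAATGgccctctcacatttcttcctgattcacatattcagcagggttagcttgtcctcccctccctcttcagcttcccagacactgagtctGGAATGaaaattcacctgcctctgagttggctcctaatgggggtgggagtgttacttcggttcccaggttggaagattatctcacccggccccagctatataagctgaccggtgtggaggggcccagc
GGAATG or its complement stood in 10 of the 29 members' windows and in 8.65% of 11846 promoter windows of tested coding genes; such a match is a description and not a binding site.

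ANKRD1, a cardiac ankyrin repeat protein of muscle that is induced on stiff surfaces, read 0.137, 0.316, 0.0597 and 0.0744 in the tumour libraries, against 11.1, 10.8 and 10.2 in the monolayer (log2 difference -3.36 ± 0.13, adjusted p = 1.81e-10). It was below 0.32 in all tumours but reached 12.2 to 17.2 (median 15.4) in brain metastases. CCN2, the connective tissue growth factor, read 97.4, 94.2, 98.3 and 59.5 in the tumour libraries, against 612, 622 and 605 in the monolayer, a 7.09-fold fall, with tumour library 4 lowest. CCN1, its relative CYR61, read 73.7, 46.4, 115 and 62.7 in the tumour libraries, against 259, 264 and 261 in the monolayer, a 3.67-fold fall, with tumour library 3 highest. Against brain metastases CCN2 was lower (log2 difference -1.36 ± 0.12, adjusted p = 5.24e-07), while CCN1 was not called (0.10 ± 0.18, adjusted p = 0.669).

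NT5E, the ectoenzyme CD73 that makes adenosine, read 52.8, 42.1, 41.9 and 37.4 in the tumour libraries, against 307, 307 and 306 in the monolayer, and AXL, a receptor tyrosine kinase, 49.03, 50.4, 42.5 and 43.7 in the tumours, against 120.1, 122 and 122 in the monolayer. NEDD9, a scaffold of focal adhesions, read 0.441, 1.48, 0.627 and 0.489 in the tumour libraries, against 7.45, 7.08 and 7.14 in the monolayer. The 3 members that rose were CAVIN2, a caveola coat protein, with 108, 77.8, 83.7 and 88.5 in the tumours, against 38.4, 39.5 and 36.9 in the monolayer, AMOTL1, a junction protein that holds YAP, and ARHGEF17, a guanine nucleotide exchange factor. AMOTL1 and ARHGEF17 rose 1.87 (AMOTL1) and 1.199-fold (ARHGEF17). With any 1 of the 7 libraries left out, 23 members fell. TGM2, a transglutaminase that crosslinks matrix, differed widely between sites, with 32.5, 42.5, 37.9 and 35.5 in subcutaneous tumours, 715 ± 123 in brain metastases (SD, n = 6) and 118, 124 and 118 in the monolayer.

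Adhesion receptors were mixed. Of 13 tested integrin genes 4 rose and 7 fell, beside 21.5% higher and 30.9% lower over all genes. With quantile normalization 4 rose and 5 fell. ITGA1 and ITGA10, alpha chains of collagen receptors, ITGA3, that of a laminin receptor, and ITGB7, a beta chain of leukocyte integrins, rose. ITGA5, ITGAV, ITGB1 and ITGB5, which serve fibronectin and vitronectin receptors among others, fell, as did ITGA6, ITGB2 and ITGB4. ITGA3 read 646, 639, 736 and 686 in the tumour libraries, against 291, 305 and 298 in the monolayer (log2 difference 1.18 ± 0.06, adjusted p = 3.13e-09). ITGA5, the fibronectin receptor chain, read 61.9, 57.4, 65.3 and 53.4 in the tumour libraries, against 119, 125 and 119 in the monolayer (log2 difference -1.01 ± 0.09, adjusted p = 3.67e-07). CD44, the hyaluronan receptor, read 103, 91.99, 113 and 90.2 in the tumour libraries, against 297, 316 and 306 in the monolayer (log2 difference -1.62 ± 0.12, adjusted p = 7.34e-08), a 3.07-fold fall. The hyaluronan synthases HAS2 and HAS3 rose 2.86 (HAS2) and 3.09-fold (HAS3), and CEMIP, which binds and degrades hyaluronan, rose to 2.94, 2.35, 5.59 and 3.04 in the tumours, against 0.176, 0.199 and 0.252 in the monolayer.

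Matrix genes rose more often than they fell. Of 23 tested genes for hyaluronan, proteoglycans and matricellular proteins, 13 rose and 6 fell, with a median of 0.78, and of 28 collagen and basement membrane genes 15 rose and 5 fell, with a median of 0.35, beside 21.5% higher over all genes. COL1A1, the main chain of type I collagen, read 160.2, 186, 184 and 203 in the tumour libraries, against 22.5, 21.1 and 22.2 in the monolayer (log2 difference 3.00 ± 0.10, adjusted p = 9.26e-11). Of its 17363 human reads in the 4 tumours, 135 were expected from mouse RNA at the rate seen in brain. Human COL1A2, the partner chain, also rose but from a low level, at 3.43, 2.14, 1.26 and 2.903 in the tumours, against 0.319, 0.251 and 0.0769 in the monolayer. It had 51 to 98 reads per tumour library, of which 0 were expected from mouse RNA at the rate seen in brain. In the tumours, mouse Col1a2 was nearly as abundant as mouse Col1a1. Mouse reads made up 11.3, 12.2, 4.84 and 9.29% of all reads in these libraries. Human COL1A2 was lowest in library 3, which had the lowest mouse share, but was not highest in library 2, which had the highest. The part of mouse reads in the COL1A2 rise was not tested, since no rate was measured in skin. COL5A1, a fibril collagen, read 16.8, 38.7, 27.1 and 23.4 in the tumour libraries, against 4.75, 4.73 and 4.63 in the monolayer, and COL17A1, a collagen of hemidesmosomes, 5.16, 6.06, 6.29 and 6.86 in the tumours, against 0.875, 0.748 and 0.712 in the monolayer. The laminin chains LAMB2 and LAMB3 rose 1.96 (LAMB2) and 2.37-fold (LAMB3). COL4A1 and COL4A2, the paired chains of basement membrane collagen, fell 2.26 (COL4A1) and 2.15-fold (COL4A2).

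SDC1, the heparan sulfate proteoglycan syndecan-1, read 279, 222, 281 and 289 in the tumour libraries, against 83.6, 81.2 and 82.2 in the monolayer (log2 difference 1.68 ± 0.12, adjusted p = 7.30e-08). The glypicans GPC1, GPC4 and GPC6, other proteoglycans of this kind, fell by 1.34 (GPC1), 1.705 (GPC4) and 2.19-fold (GPC6). FN1, fibronectin, read 52.8, 53.6, 93.7 and 62.3 in the tumour libraries, against 31.4, 30.5 and 33.4 in the monolayer, highest in tumour library 3. Among 22 tested proteases and inhibitors, 10 rose and 5 fell, beside 21.5% higher and 30.9% lower over all genes. PLAU, the plasminogen activator urokinase, read 0.725, 0.696, 0.787 and 0.8503 in the tumour libraries, against 11.9, 13.3 and 12.9 in the monolayer, all tumours under 1, with brain metastases at 7.71 to 17.5 (median 14.5). Its receptor PLAUR moved the other way, at 223, 201, 242 and 221 in the tumours, against 117, 125 and 120.0 in the monolayer. TIMP1, an inhibitor of metalloproteases, rose 1.49-fold. The cathepsins, lysosomal proteases, differed: CTSL fell 2.66-fold, CTSB fell 1.43-fold and CTSD rose 1.74-fold.

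Of 10 tested targets of AHR 6 fell and 2 rose, with a median of -0.86, beside 30.9% lower and 21.5% higher over all genes. The count that rose was thus near the share over all genes. The falls ran from 1.23 to 18.5-fold, and with 1 library left out 5 to 8 members fell. The core letters of the AHR element, GCGTG on either strand, stood in the 250 bases before the start of 5 of the 10 members and in 48.2% of 11846 promoter windows of tested coding genes. The window of CYP1B1, the member that fell most, held none on hg38 at chr2:38076152-38076401, minus strand, and is shown for that reason.
CYP1B1: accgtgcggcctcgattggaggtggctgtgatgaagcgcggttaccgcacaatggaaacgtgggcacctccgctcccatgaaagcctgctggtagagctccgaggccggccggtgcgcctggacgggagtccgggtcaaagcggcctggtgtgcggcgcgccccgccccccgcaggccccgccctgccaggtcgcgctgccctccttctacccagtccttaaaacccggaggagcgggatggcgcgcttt

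CYP1B1, a cytochrome P450 that oxidizes oestrogen and polycyclic hydrocarbons (chr2:38066973-38109902, minus strand), read 27.4, 18.4, 21.9 and 22.2 in the tumour libraries, against 442, 419.8 and 429.6 in the monolayer (log2 difference -4.21 ± 0.10, adjusted p = 5.54e-12). The brain metastases were also low, at 13.4 to 20.2 (median 15.4). TIPARP, a mono-ADP-ribosyltransferase that restrains AHR, read 7.37, 3.37, 10.996 and 5.08 in the tumour libraries, against 56.3, 54.9 and 54.5 in the monolayer, a 7.82-fold fall, with tumour library 3 highest and library 2 lowest. AHRR, the AHR repressor, fell 2.67-fold, and CYP1A1, the classical target, read 0.09795, 0.0188, 0.106 and 0.0795 in the tumour libraries, against 2.52, 2.68 and 2.37 in the monolayer, a low level in culture too. In CYP1B1, TIPARP, AHRR and CYP1A1 the group means of both kinds of tumour were below that of the monolayer. The other members that fell, SLC7A5 and NQO1, also sit on lists described next, and without tumour library 1 the count of members that fell was 8.

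ALDH3A1, an aldehyde dehydrogenase, went against these, at 11.7, 11.1, 21.6 and 17.6 in the tumour libraries, against 0.2199, 0.242 and 0.445 in the monolayer (log2 difference 3.62 ± 0.21, adjusted p = 8.74e-09). Brain metastases were higher still, at 55.4 to 92.1 (median 75.8). LRAT, which stores vitamin A as esters, rose 2.96-fold. AHR itself and its partner ARNT were not called (-0.17 ± 0.10, adjusted p = 0.161 for AHR and -0.15 ± 0.07, adjusted p = 0.0925 for ARNT).

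Enzymes of serine, glycine and one-carbon metabolism fell: 13 of 18 tested members were lower and 2 higher, with a median of -0.64. PHGDH, the first enzyme of serine synthesis from glucose (chr1:119648411-119744218, plus strand), read 5.55, 5.04, 3.498 and 4.43 in the tumour libraries, against 105, 109 and 101 in the monolayer (log2 difference -4.25 ± 0.16, adjusted p = 1.83e-10), a 19.04-fold fall. The middle enzyme of that path, PSAT1, was listed at 0.0504 or less in all 7 libraries. Such values do not tell a silent gene from one whose reads were not counted. PSPH, the last enzyme, read 26.8, 21.3, 25.9 and 26.96 in the tumour libraries, against 62.9, 65.9 and 63.1 in the monolayer. MTHFD2, a mitochondrial folate enzyme, read 118, 97.8, 93.5 and 83.01 in the tumour libraries, against 441, 438 and 438 in the monolayer, and SHMT2, which splits serine into glycine in mitochondria, 68.98, 57.5, 61.2 and 61.98 in the tumours, against 146, 158 and 156 in the monolayer. CBS, which condenses serine with homocysteine, read 0.511, 0.210003, 0.309 and 0.385 in the tumour libraries, against 3.88, 4.34 and 3.499 in the monolayer, and GLDC, which decarboxylates glycine, fell 2.58-fold. The cytosolic counterparts of SHMT2 and MTHFD2 fell less, with SHMT1 at -0.57 ± 0.08 and MTHFD1 at -0.81 ± 0.06 on the log2 scale. AMT, the aminomethyltransferase of glycine cleavage, rose 2.65-fold, and MAT2A, which makes S-adenosylmethionine, rose 1.63-fold.

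The list of ATF4 and amino acid stress genes moved the same way: 19 of 29 tested members fell and 2 rose, with a median of -0.72. ATF4 pairs with C/EBP proteins at elements of the form TGATGNAAN, shown in capitals in the windows of ASNS (chr7:97872409-97872658, minus strand) and JDP2 (chr14:75427772-75428021, plus strand), the members that fell most.
ASNS: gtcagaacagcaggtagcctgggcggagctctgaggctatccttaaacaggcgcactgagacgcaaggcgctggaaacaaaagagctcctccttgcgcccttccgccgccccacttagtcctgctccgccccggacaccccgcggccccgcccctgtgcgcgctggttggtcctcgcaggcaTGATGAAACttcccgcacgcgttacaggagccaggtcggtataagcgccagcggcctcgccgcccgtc
JDP2: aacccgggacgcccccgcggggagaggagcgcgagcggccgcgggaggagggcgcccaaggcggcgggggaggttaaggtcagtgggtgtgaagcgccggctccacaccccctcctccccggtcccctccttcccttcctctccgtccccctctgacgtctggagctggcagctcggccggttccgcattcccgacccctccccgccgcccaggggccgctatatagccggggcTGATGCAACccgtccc
The match lay 68 bases before the start of ASNS and 16 before that of JDP2; 7 of the 29 members held one, 0 of the 18 serine and one-carbon genes did, PHGDH and MTHFD2 among them, and 1.13% of all 11846 windows did.

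ASNS, asparagine synthetase, read 25.6, 20.6, 19.9 and 17.7 in the tumour libraries, against 192, 188 and 183 in the monolayer (log2 difference -3.11 ± 0.10, adjusted p = 7.11e-11). Brain metastases were intermediate, at 35.6 to 50.7 (median 44.3), and above the subcutaneous tumours by the log2 difference -1.01 ± 0.09, subcutaneous minus brain (adjusted p = 5.84e-07). JDP2, a small leucine zipper protein that pairs with JUN, read 4.66, 5.76, 4.33 and 5.15 in the tumour libraries, against 39.01, 41.2 and 38.1 in the monolayer, and its level in brain metastases, 29.5 to 41.6 (median 35.03), was near that in culture. CHAC1, which degrades glutathione, read 3.85, 2.37, 2.299 and 2.83 in the tumour libraries, against 19.5, 22.9 and 19.5 in the monolayer, and PCK2, the mitochondrial PEP carboxykinase, 17.1, 15.1, 14.1 and 15.7 in the tumours, against 76.6, 79.6 and 77.9 in the monolayer.

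Carriers of amino acids on the same list went both ways. SLC7A5, a carrier of large neutral amino acids, read 27.5, 23.9, 24.2 and 23.7 in the tumour libraries, against 102, 106 and 103 in the monolayer (log2 difference -2.02 ± 0.07, adjusted p = 9.26e-11), and SLC1A5, a glutamine carrier, 28.6, 27.1, 24.8 and 28.6 in the tumours, against 111, 120.0 and 117 in the monolayer. SLC7A11, the cystine importer, was 1 of the 2 members that rose, at 100.3, 82.2, 71.98 and 78.4 in the tumours, against 53.3, 48.8 and 52.8 in the monolayer. ATF4 itself fell with a difference of -0.83 ± 0.08 (adjusted p = 1.51e-06), while DDIT4 (-0.38 ± 0.23, adjusted p = 0.187), ATF3 (-0.62 ± 0.38, adjusted p = 0.191) and PPP1R15A (0.10 ± 0.17, adjusted p = 0.651) were not called.

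Cytosolic aminoacyl-tRNA synthetases, which load each amino acid onto its tRNA, were the most uniform of these groups. Of 20 tested, 18 fell, 0 rose and the median was -0.97. GARS1, for glycine, read 163, 147, 139 and 129 in the tumour libraries, against 531, 538 and 528 in the monolayer (log2 difference -1.88 ± 0.07, adjusted p = 1.43e-10). YARS1, for tyrosine, read 87.1, 76.6, 78.3 and 75.3 in the tumour libraries, against 205, 209 and 210.3 in the monolayer and AARS1, for alanine, 322, 256, 303 and 289 in the tumours, against 689, 722 and 716 in the monolayer. The 2 members without a call were HARS1, for histidine (-0.11 ± 0.06, adjusted p = 0.148), and FARSA, a chain of the phenylalanine enzyme (-0.13 ± 0.09, adjusted p = 0.23); FARSB, the other chain of that enzyme, fell with a difference of -0.77 ± 0.09. With scaling to nuclear genes 15 fell and with quantile normalization 14.

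**Figure D3:**
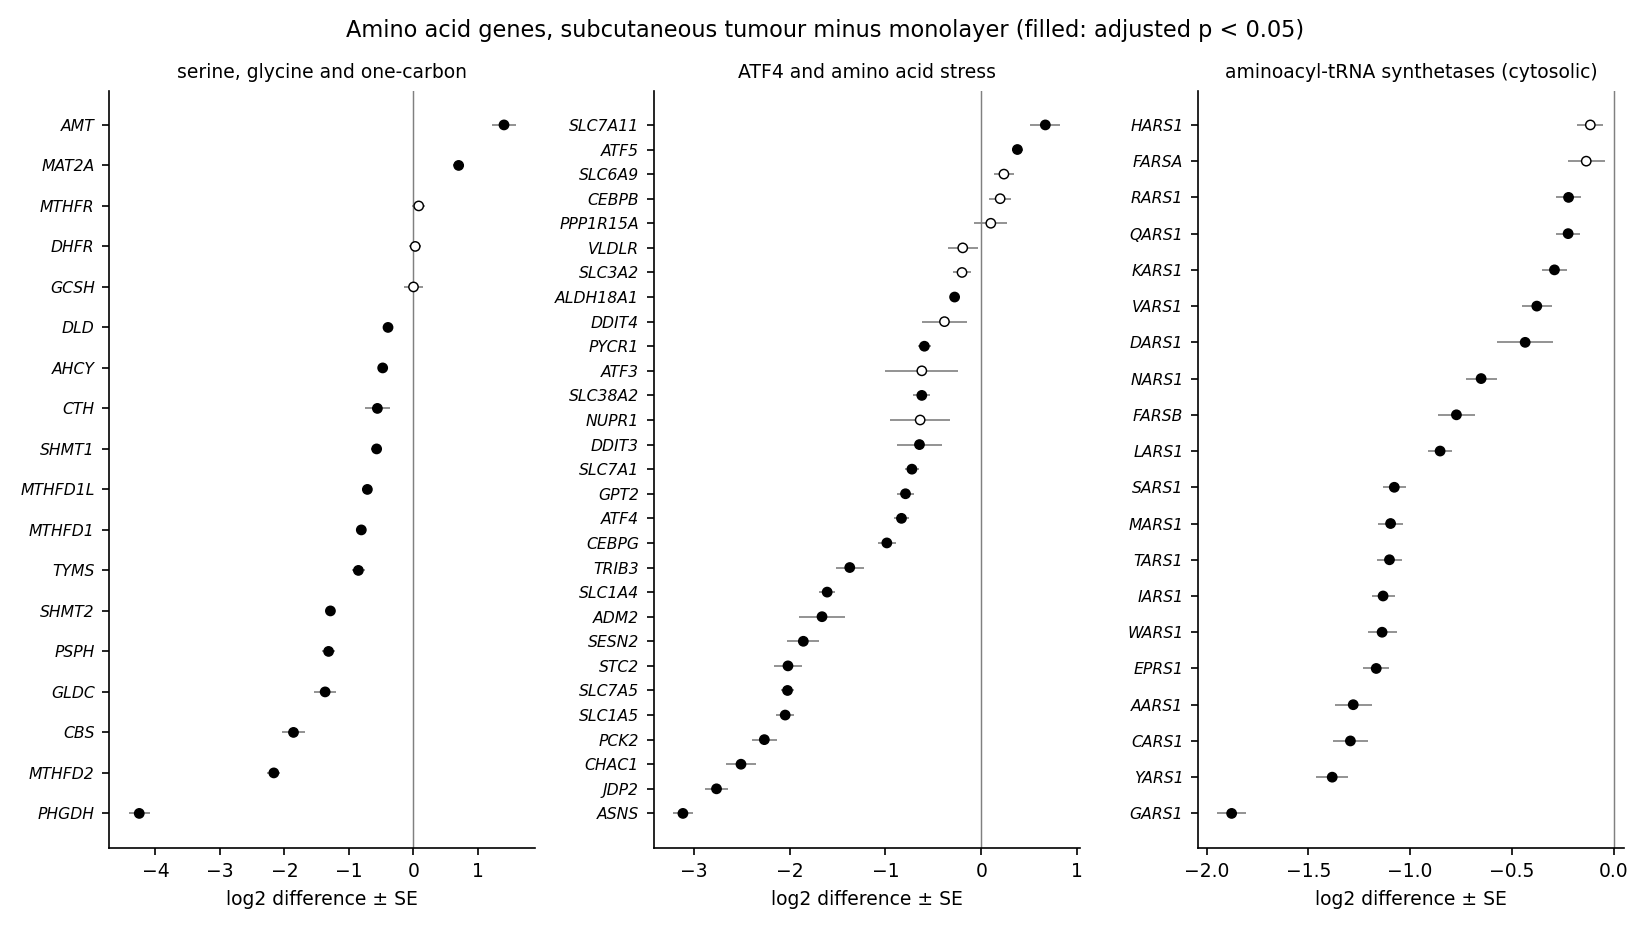
Log2 difference with its standard error, subcutaneous minus monolayer, for each tested gene of 3 lists; filled points were called by limma. Points left of 0 are lower in the tumours: 13 of 18, 19 of 29 and 18 of 20 genes were called there, with PHGDH at -4.25, ASNS at -3.11 and GARS1 at -1.88 lowest.

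NRF2 targets, which answer oxidative stress, fell in 15 of 25 tested members and rose in 3. Over all genes 30.9% were lower and 21.5% higher. GCLC, the catalytic chain of glutathione synthesis, read 55.6, 53.95, 50.9 and 48.8 in the tumour libraries, against 154, 152 and 157 in the monolayer (log2 difference -1.54 ± 0.06, adjusted p = 1.77e-10). FTH1, the ferritin heavy chain, whose many pseudogenes may share reads, fell 1.88-fold. NQO1, a quinone reductase and among the most abundant transcripts, differed little, at 2733, 2188, 2459 and 2463 in the tumour libraries, against 2985, 3134 and 2953 in the monolayer. HMOX1, haem oxygenase, rose to 188, 169, 127 and 144 in the tumours, against 86.7, 91.4 and 84.1 in the monolayer. SLC7A11 and ABCC3, an efflux pump, were the other members that rose. Under median-of-ratios scaling, scaling to nuclear genes or quantile normalization 6 members rose.

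Genes of replication and mitosis fell nearly throughout, by modest amounts. Of 35 tested, 33 fell and 0 rose, with a median of -0.75, and 33 fell under every scaling tried and with any 1 library left out. MKI67, the Ki-67 proliferation antigen, read 49.7, 46.8, 48.5 and 49.7 in the tumour libraries, against 78.4, 77.8 and 85.4 in the monolayer (log2 difference -0.71 ± 0.11, adjusted p = 7.64e-05). TOP2A, a topoisomerase of dividing cells, read 1001, 931, 934 and 898 in the tumour libraries, against 2049, 1894 and 2006 in the monolayer (log2 difference -1.07 ± 0.06, adjusted p = 1.46e-08). CDT1, which licenses origins, read 36.9, 38.6, 34.02 and 40.04 in the tumour libraries, against 96.9, 101 and 95.9 in the monolayer, and CDC20, an activator of the anaphase-promoting complex, 68.3, 56.6, 57.7 and 65.6 in the tumours, against 146, 147 and 143 in the monolayer. The falls of called members ran from 1.29 to 2.58-fold. CCNE1, cyclin E1 (0.18 ± 0.14, adjusted p = 0.325), and CENPE, a kinetochore motor (-0.19 ± 0.14, adjusted p = 0.292), were not called.

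Inhibitors of the cycle did not move as a block. CDKN1A, the kinase inhibitor p21, read 35.5, 30.3, 46.7 and 33.4 in the tumour libraries, against 17.6, 19.9 and 19.3 in the monolayer (log2 difference 0.90 ± 0.17, adjusted p = 0.000526). CDKN2B, the inhibitor p15, fell 2.43-fold, and RB1, RBL1 and RBL2, the retinoblastoma family, fell by 1.66 (RB1), 1.41 (RBL1) and 1.496-fold (RBL2). In all 2 of 13 rose and 5 fell, which is near the shares over all genes.

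Ribosomal protein genes fell in 17 of 25 tested members by 1.12 to 1.496-fold, with 0 higher and a median of -0.25. These transcripts have many near-identical copies that may share reads, and with scaling to nuclear genes 9 fell and 1 rose. RPS6, a small-subunit protein, read 778, 727, 741 and 772 in the tumour libraries, against 1139, 1144 and 1103 in the monolayer.

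Transcripts encoded in mitochondrial DNA took a larger share of the tumour libraries. Their share of the human RPKM was 14.9, 18.1, 15.9 and 17.0% in the tumours, against 8.76, 8.92 and 9.59% in the monolayer, without overlap. The exact two-sided permutation p was 0.0571, the smallest that this design allows, and brain metastases averaged 10.8 ± 0.931% (SD, n = 6). All 13 protein-coding genes rose, with a median of 1.02; under quantile normalization 11 rose, 1 fell and the median was 0.44. MT-ND1, a complex I subunit, read 8502, 11739, 8999.9 and 10325 in the tumour libraries, against 3245, 3269 and 3226 in the monolayer (log2 difference 1.60 ± 0.11, adjusted p = 5.68e-08). MT-CYB, of complex III, read 6692, 9049, 7761 and 8161 in the tumour libraries, against 2669.8, 2754 and 2712 in the monolayer. Nuclear copies of these genes may share reads with them.

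Nuclear genes of oxidative phosphorylation mostly did not rise. Of 29 tested, 3 rose and 12 fell, with a median of -0.15, beside 21.5% higher and 30.9% lower over all genes. SDHB and SDHD, chains of complex II, which has no mitochondrially encoded part, fell 1.41 (SDHB) and 1.63-fold (SDHD). NDUFS1, of complex I, read 70.1, 58.7, 65.4 and 62.6 in the tumour libraries, against 91.9, 90.5 and 96.5 in the monolayer, and NDUFA4, a subunit now placed in complex IV, 216, 193, 213 and 213 in the tumours, against 152, 146 and 132 in the monolayer. Under scaling to nuclear genes, which leaves out the mitochondrial transcripts, 4 rose and 9 fell, and the list median was -0.03.

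Genes of the hypoxia list rose in 14 of 26 tested members and fell in 4, beside 21.5% higher over all genes, with a median of 0.43. Hypoxia-inducible factors bind ACGTG, and the window of ANKRD37 (chr4:185396591-185396840, plus strand), the member that rose most, is shown with these letters, on either strand, in capitals.
ANKRD37: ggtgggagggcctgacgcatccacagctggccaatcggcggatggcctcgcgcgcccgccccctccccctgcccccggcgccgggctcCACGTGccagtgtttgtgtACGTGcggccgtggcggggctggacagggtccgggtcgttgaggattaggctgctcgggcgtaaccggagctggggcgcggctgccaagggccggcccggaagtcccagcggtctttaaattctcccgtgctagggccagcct
It held 3 matches, 2 of which overlap in a palindrome, and that of ANGPTL4 held 1; 16 of 26 members held one, beside 23.5% of all 11846 windows.

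ANKRD37, a small ankyrin repeat protein, read 33.2, 14.998, 63.5 and 35.01 in the tumour libraries, against 4.19, 4.74 and 4.21 in the monolayer (log2 difference 2.64 ± 0.44, adjusted p = 0.000335). It was highest in library 3 and lowest in library 2. ANGPTL4, an inhibitor of lipoprotein lipase, read 223, 193, 253 and 244 in the tumour libraries, against 46.3, 50.7 and 47.03 in the monolayer (log2 difference 2.22 ± 0.12, adjusted p = 7.91e-09), and brain metastases reached 83.6 to 133 (median 99.5). NDRG1, a stress-responsive protein of the cytosol and membranes, read 793, 899, 716 and 688 in the tumour libraries, against 284, 309 and 294 in the monolayer. It was highest in library 2, unlike ANKRD37. PDK1, which closes the entry of pyruvate into mitochondrial oxidation, read 52.8, 51.02, 44.1 and 43.8 in the tumour libraries, against 22.6, 22.2 and 23.1 in the monolayer. PFKFB4, a regulator of glycolysis, read 36.6, 26.9, 31.4 and 36.2 in the tumour libraries, against 12.8, 14.3 and 14.02 in the monolayer. In these genes all 4 tumour libraries were above the monolayer. CA9, a membrane carbonic anhydrase often used as a hypoxia marker, rose too but stayed low, at 2.25, 1.18, 1.39 and 1.66 in the tumours, against 0.0365, 0 and 0.0307 in the monolayer. VEGFA, the vascular growth factor, was not called (41.7, 39.2, 52.9 and 45.5 in the tumours, against 47.5, 48.1 and 49.2 in the monolayer; log2 difference -0.11 ± 0.11, adjusted p = 0.399).

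SLC2A1, the glucose carrier GLUT1, fell, at 93.4, 83.5, 87.99 and 82.3 in the tumour libraries, against 225, 239 and 229.6 in the monolayer (log2 difference -1.40 ± 0.09, adjusted p = 1.87e-08), with brain metastases at 161 to 296 (median 216). Of 23 tested glycolysis genes 12 rose and 6 fell, beside 21.5% higher and 30.9% lower over all genes. LDHA and PKM, the enzymes of lactate and pyruvate formation, rose 1.54 (LDHA) and 1.49-fold (PKM), while LDHB, the other lactate dehydrogenase chain, and SLC16A1, a lactate carrier, fell 1.38 (LDHB) and 1.44-fold (SLC16A1).

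Fatty acid genes fell in 15 of 22 tested members and rose in 1, with a median of -0.49. SCD, the desaturase that makes oleate, read 175, 139, 198 and 169 in the tumour libraries, against 439, 432 and 436 in the monolayer (log2 difference -1.36 ± 0.11, adjusted p = 2.10e-07), yet brain metastases were lower still at 46.5 to 75.9 (median 58.4). ACSL4, which activates arachidonate, read 42.4, 39.9, 43.5 and 35.8 in the tumour libraries, against 186, 170.3 and 179 in the monolayer, a 4.34-fold fall, with brain metastases, at 145 to 175 (median 158), near the monolayer. Of 24 tested cholesterol genes 5 rose and 5 fell, beside 21.5% higher and 30.9% lower over all genes. With median-of-ratios scaling 5 rose and 3 fell, with scaling to nuclear genes 6 and 2, and with quantile normalization 5 and 2. MVD, a mevalonate decarboxylase, rose 1.86-fold, and SREBF2, the regulator of the pathway, fell 1.502-fold.

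Immediate early genes, which cells switch on within minutes of a stimulus, rose in the tumours and varied between them. Of 26 tested, 15 rose and 3 fell, with a median of 0.64. FOS, a partner of JUN in AP-1 (chr14:75278826-75282230, plus strand), read 197, 124, 678 and 399 in the tumour libraries, against 13.3, 14.6 and 13.5 in the monolayer (log2 difference 4.28 ± 0.48, adjusted p = 2.06e-05). Even the lowest tumour library was far above culture, and library 3 exceeded library 2 by the widest margin. FOSB, a relative of FOS, read 4.196, 3.54, 33.01 and 19.7 in the tumour libraries, against 0.226, 0.236 and 0.175 in the monolayer, and NR4A1, an orphan nuclear receptor, 238, 198, 537 and 361 in the tumours, against 40.2, 41.4 and 40.6 in the monolayer. DUSP1, a phosphatase that ends MAP kinase signals, read 38.4, 33.002, 79.5 and 55.9 in the tumour libraries, against 12.04, 12.1 and 11.9 in the monolayer. EGR1, a zinc finger factor with libraries 1 and 2 near the culture level, was not called: it read 6.903, 4.39, 49.6 and 30.2 in the tumour libraries, against 5.67, 5.78 and 6.34 in the monolayer (log2 difference 1.22 ± 0.64, adjusted p = 0.134).

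The order of the libraries repeated from gene to gene. In 14 of the 15 that rose, library 3 was highest, in 11 of them with library 4 next, and in 14 library 2 was lowest. Library 3 was also the deepest, with 48152857 human reads, and library 2 the shallowest, with 27253282, and library 3 held almost no mouse Krt1; the part of depth and of dissection in this order was not tested. Without library 3, 14 members rose and 5 fell. Brain metastases had 6.59 to 19.6 (median 11.7) for FOS and 0.167 to 0.8504 (median 0.397) for FOSB, close to the monolayer. FOSL1 and MYC, which also sit on this list, fell 3.47 (FOSL1) and 1.44-fold (MYC).

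**Figure D4:**
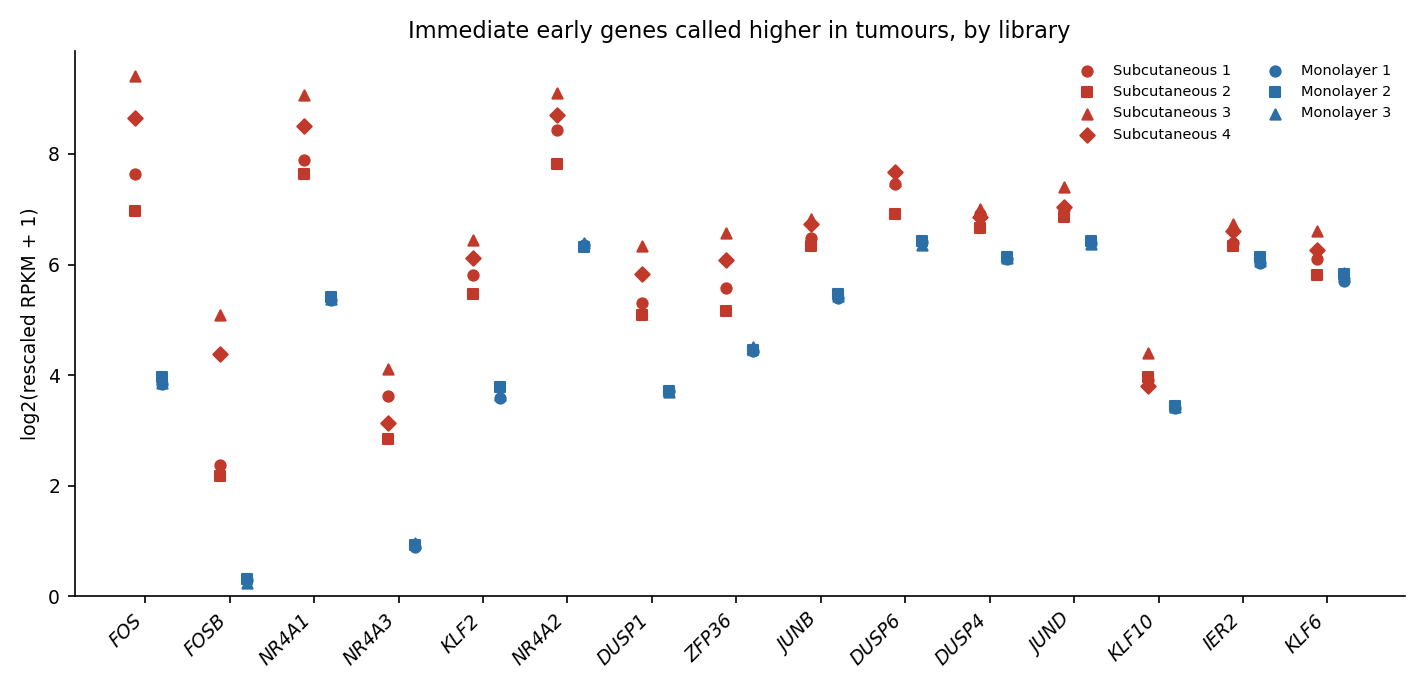
Log2(rescaled RPKM + 1) of the 15 immediate early genes called higher in tumours, ordered by their difference; symbols mark the replicate number, red for subcutaneous tumour and blue for monolayer. Red triangles (tumour library 3) are highest in 14 of the 15 genes and red squares (library 2) lowest in 14, while the 3 monolayer values nearly coincide.

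Clock genes rose in 9 of 16 tested members and fell in 2, beside 21.5% higher and 30.9% lower over all genes. BHLHE41, a repressor of the loop, read 4.07, 3.73, 4.09 and 4.31 in the tumour libraries, against 0.388, 0.0594 and 0.0727 in the monolayer. PER1, a period repressor that also answers glucocorticoid, read 187, 214, 309 and 261 in the tumour libraries, against 76.9, 81.7 and 79.2 in the monolayer, and PER2, its relative, 34.6, 30.8, 40.8 and 38.5 in the tumours, against 10.8, 9.72 and 10.4 in the monolayer. NR1D2, a REV-ERB receptor, read 5.46, 7.36, 4.25 and 4.11 in the tumour libraries, against 12.8, 13.2 and 12.5 in the monolayer. BMAL1, the activator of the loop, was not called (log2 difference 0.02 ± 0.09, adjusted p = 0.902). The time of day of harvest is not in the labels, and with 1 library of a group left out 6 to 9 members rose.

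Epithelial genes rose in 9 of 13 tested members and fell in 1, with a median of 0.73. CDH1, the junction protein E-cadherin, read 9.61, 18.3, 12.6 and 10.4 in the tumour libraries, against 0.807, 0.976 and 0.9203 in the monolayer (log2 difference 2.81 ± 0.16, adjusted p = 8.74e-09). It stayed below brain metastases, which had 60.1 to 74.4 (median 66.8). EPCAM read 50.8, 44.9, 50.7 and 44.4 in the tumour libraries, against 12.7, 11.5 and 11.95 in the monolayer, and KRT8 read 486, 463, 566 and 502 in the tumour libraries, against 174, 167 and 158 in the monolayer. KRT18 rose 1.704-fold. KRT7 was the member that fell. For KRT8 and KRT18 the brain metastases were above the subcutaneous tumours, with log2 differences, subcutaneous minus brain, of -1.18 ± 0.09 (KRT8, adjusted p = 2.21e-07) and -1.05 ± 0.08 (KRT18, adjusted p = 2.70e-07). EPCAM was the other way round (0.81 ± 0.13, adjusted p = 0.000188).

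Mesenchymal genes did not fall in exchange. Of 14 tested, 6 rose and 4 fell, beside 21.5% higher and 30.9% lower over all genes. The list median of 0.04 became -0.01 under quantile normalization. VIM, the filament protein vimentin, read 533, 452, 509.9 and 481 in the tumour libraries, against 958, 993 and 952 in the monolayer (log2 difference -0.97 ± 0.06, adjusted p = 3.62e-08), and ZEB1, a repressor of CDH1, 9.23, 9.09, 8.86 and 8.21 in the tumours, against 13.3, 12.96 and 13.6 in the monolayer. S100A4, a calcium-binding protein linked to motility, went up to 209.8, 219, 222 and 184 in the tumours, against 28.2, 29.3 and 27.9 in the monolayer. CDH11, a cadherin of mesenchymal cells, read 936, 1103, 946 and 890.3 in the tumour libraries, against 283, 275 and 288 in the monolayer. TGFBI, a matrix protein induced by TGF-beta, fell 3.03-fold. E-cadherin, CDH11 and S100A4 thus rose in the same libraries in which vimentin, ZEB1 and TGFBI fell. Against brain metastases 2 of the 14 were higher and 9 lower.

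Among 17 tight junction and polarity genes 5 rose and 6 fell, close to the 21.5% higher and 30.9% lower over all genes. CLDN1, a claudin of tight junctions, read 16.9, 24.4, 11.2 and 12.6 in the tumour libraries, against 70.4, 70.6 and 70.03 in the monolayer, a 4.31-fold fall, and TJP1, the scaffold ZO-1, fell 1.94-fold, while TJP3, CGN and LLGL2, other junction and polarity proteins, rose by 1.54 (TJP3), 1.64 (CGN) and 1.82-fold (LLGL2). Of 24 mucin and secretory genes 15 have a row in the human table and 4 passed the filter, of which MUC16, MUC1 and SLPI rose. MUC1, a membrane mucin, read 136, 284, 152 and 153 in the tumour libraries, against 32.9, 30.2 and 32.4 in the monolayer, with tumour library 2 far above the others. Of 20 lung lineage genes 16 have a row in the table and 7 passed the filter, of which 1 rose, NAPSA, and 3 fell. These counts turned to 3 higher and 1 lower with scaling to nuclear genes, and to 1 and 1 with quantile normalization. Among those that fell was LAMP3, a lamellar body and dendritic cell protein, with 1.88, 1.83, 1.34 and 1.47 in the tumours, against 3.87, 4.61 and 4.12 in the monolayer.

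Of 16 tested cytokine and chemokine genes 7 fell and 0 rose, with a median of -0.44, beside 30.9% lower over all genes. CXCL8, the neutrophil attractant interleukin-8, read 33.7, 37.5, 33.8 and 19.8 in the tumour libraries, against 187, 187 and 186 in the monolayer (log2 difference -2.58 ± 0.26, adjusted p = 3.79e-06). IL6 read 14.5, 14.3, 15.2 and 12.5 in the tumour libraries, against 31.8, 32.1 and 31.3 in the monolayer (log2 difference -1.12 ± 0.11, adjusted p = 1.83e-06). LIF, a cytokine of the IL6 family, and IL18, a cytokine of the IL1 family, fell 2.51 (LIF) and 2.02-fold (IL18). IL6 was above brain metastases (log2 difference 0.66 ± 0.10, adjusted p = 5.81e-05), and without tumour library 2 the count of members that fell was 11.

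Interferon-stimulated genes went both ways, with 8 of 22 higher and 7 lower, beside 21.5% higher and 30.9% lower over all genes. OAS1, a sensor of double-stranded RNA, read 11.9, 19.5, 12.6 and 16.9 in the tumour libraries, against 1.09, 1.07 and 0.871 in the monolayer (log2 difference 2.99 ± 0.24, adjusted p = 1.89e-07). IFI6, a mitochondrial protein that restrains cell death, read 46.2, 60.2, 60.8 and 47.7 in the tumour libraries, against 9.72, 11.9 and 10.5 in the monolayer, and ISG15, a ubiquitin-like modifier, 18.8, 20.2, 18.8 and 19.4 in the tumours, against 4.33, 5.45 and 5.06 in the monolayer. IFI44L, an interferon-induced GTPase-like protein, read 10.7, 12.2, 9.504 and 9.51 in the tumour libraries, against 27.7, 27.5 and 24.7 in the monolayer. IFIH1, the RNA sensor MDA5, fell 1.59-fold. Of the 8 that rose, 6 were highest in tumour library 2, and among the tumours so were 6 of the 7 that fell. The list's median of -0.11 became 0.17 under scaling to nuclear genes.

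Class I presentation genes rose in 4 of 17 tested members and fell in 5, near the shares over all genes. HLA-B, a class I heavy chain whose reads may be shared with near-identical relatives, was not called (log2 difference -0.27 ± 0.18, adjusted p = 0.23). PSMB8 and PSMB9, chains of the immunoproteasome, fell 1.67 (PSMB8) and 1.97-fold (PSMB9). ERAP2, a trimming peptidase of the endoplasmic reticulum, read 62.8, 70.9, 63.1 and 54.1 in the tumour libraries, against 120.3, 115 and 121 in the monolayer.

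Of 25 acute phase and complement genes 21 have a row in the human table and 8 passed the filter, of which 6 rose and 1 fell. Over all genes 21.5% were higher and 30.9% lower. The acute phase genes SAA1, SERPINA3 and LBP were too low to test. HP, haptoglobin, which binds free haemoglobin, read 24.96, 28.03, 22.4 and 42.3 in the tumour libraries, against 3.596, 3.66 and 3.87 in the monolayer (log2 difference 2.65 ± 0.16, adjusted p = 1.50e-08), below brain metastases at 70.5 to 238 (median 140.2). CD55, which protects cells from complement, rose 2.07-fold. C1S, a complement protease, read 39.8, 136, 46.6 and 45.9 in the tumour libraries, against 22.6, 22.6 and 22.9 in the monolayer, with library 2 far above the rest. C3, the central complement protein, read 1.35, 10.6, 0.881 and 1.14 in the tumour libraries, against 11.1, 11.3 and 12.3 in the monolayer (log2 difference -1.95 ± 0.50, adjusted p = 0.00584); library 2 lay at the culture level, the difference was -2.57 without it, and the call was lost when only the 7 libraries were fitted.

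Of 15 Notch genes 6 rose and 3 fell, beside 21.5% higher and 30.9% lower over all genes. NOTCH3, a receptor, read 229, 225, 272 and 254 in the tumour libraries, against 83.1, 83.3 and 83.2 in the monolayer (log2 difference 1.54 ± 0.08, adjusted p = 5.95e-09), and JAG1, a ligand, 6.71, 7.64, 9.24 and 8.597 in the tumours, against 2.02, 2.06 and 1.81 in the monolayer, while the receptors NOTCH1 and NOTCH2 fell 1.74 (NOTCH1) and 1.903-fold (NOTCH2). JAG1 was higher still in brain metastases, at 21.2 to 38.8 (median 30.5).

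Wnt genes fell in 11 of 24 tested members and rose in 5, beside 30.9% lower and 21.5% higher over all genes. The list median was -0.39. With scaling to nuclear genes 9 fell and with quantile normalization 14. NOTUM, a secreted enzyme that inactivates Wnt and a target of the pathway, read 2.46, 2.47, 2.22 and 2.17 in the tumour libraries, against 11.8, 11.97 and 11.9 in the monolayer, with brain metastases at 27.8 to 64.02 (median 42.5). NKD1, an intracellular feedback inhibitor, fell 2.08-fold. DKK1, a secreted inhibitor, rose 1.88-fold, and FZD6, a receptor, fell 2.25-fold. NOTUM and NKD1 had their lowest mean under the skin and their highest in brain metastases.

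TGF-beta and BMP genes rose in 8 of 27 and fell in 7, near the shares over all genes. BMP7, a ligand, read 125, 117, 166 and 124 in the tumour libraries, against 44.4, 45.4 and 45.5 in the monolayer (log2 difference 1.53 ± 0.12, adjusted p = 1.91e-07), ID1, a BMP target, rose 1.93-fold, and ID2, its relative, fell to 2.65, 2.49, 2.498 and 2.59 in the tumours, against 7.63, 7.89 and 6.896 in the monolayer. TGFB2 and TGFBR2, a ligand and a receptor of TGF-beta, fell 1.69 (TGFB2) and 1.59-fold (TGFBR2).

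Among 23 receptor tyrosine kinases, EGF ligands and binding proteins 6 rose and 9 fell, close to the shares over all genes. AREG, the EGF receptor ligand amphiregulin, read 70.3, 40.6, 71.7 and 59.8 in the tumour libraries, against 21.2, 21.4 and 20.8 in the monolayer. IGFBP2 and IGFBP5, binding proteins of insulin-like growth factors, rose 2.93 (IGFBP2) and 3.39-fold (IGFBP5), and IGFBP4, another, fell 2.18-fold. ERBB2, a receptor of the EGF family, rose 1.62-fold, and MET, the receptor of hepatocyte growth factor, fell 1.77-fold.

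Axon guidance and neuronal adhesion genes rose in 9 of 29 and fell in 8, close to the 21.5% higher and 30.9% lower over all genes. PLXNA2, a semaphorin receptor, read 15.01, 20.6, 25.1 and 17.1 in the tumour libraries, against 1.67, 2.24 and 1.502 in the monolayer (log2 difference 2.85 ± 0.18, adjusted p = 2.47e-08), EFNA1, an ephrin ligand, 260.1, 321, 251 and 197 in the tumours, against 55.7, 58.95 and 56.3 in the monolayer, and NCAM1, a neural adhesion protein, 22.7, 26.03, 32.5 and 26.7 in the tumours, against 6.62, 6.75 and 5.51 in the monolayer. NTN4, a netrin of basement membranes, fell 3.07-fold. PLXNA2 and NCAM1 thus rose in tumours outside the brain. In brain metastases PLXNA2 had 19.6 to 36.1 (median 27.3) and NCAM1 24.5 to 56.5 (median 38.1).

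Chaperones of the endoplasmic reticulum rose in 13 of 21 tested members and fell in 4, with a median of 0.30. Over all genes 21.5% were higher and 30.9% lower. HSP90B1, the chaperone GRP94, read 1925, 1755, 1916 and 1764 in the tumour libraries, against 1189, 1139 and 1174 in the monolayer (log2 difference 0.65 ± 0.07, adjusted p = 3.28e-06). CRELD2, a secreted chaperone, rose 2.199-fold, and HSPA5, the chaperone BiP, rose 1.25-fold. Of 14 tested heat shock genes, for cytosolic and mitochondrial chaperones, 0 rose and 4 fell, the latter near the share over all genes. HSP90AA1 read 4694, 3824, 5756 and 4547 in the tumour libraries, against 10009, 9443 and 9459 in the monolayer (log2 difference -1.05 ± 0.12, adjusted p = 7.42e-06), and HSPD1, the mitochondrial HSP60, fell 1.66-fold, both with relatives or pseudogenes that may share reads.

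Lysosome and autophagy genes rose in 11 of 26 and fell in 9, beside 21.5% higher and 30.9% lower over all genes. With scaling to nuclear genes or quantile normalization 11 rose and 7 fell. CTSA, MCOLN1 and GABARAPL1, a protease, a calcium channel and an autophagosome protein, rose by 1.85 (CTSA), 1.85 (MCOLN1) and 1.87-fold (GABARAPL1), and LAMP2, a lysosomal membrane protein, fell 1.55-fold. Of 3 tested metallothioneins, which bind zinc and copper, MT2A fell 1.48-fold.

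The comparison of subcutaneous tumours with brain metastases uses the same 4 tumour libraries, so its counts stand beside those against culture as values of their own. Against brain, 33 of 35 replication and mitosis genes were lower and 0 higher, 17 of 20 aminoacyl-tRNA synthetases lower and 0 higher, and 22 of 29 YAP and TEAD genes lower and 1 higher, beside 31.2% lower over all genes. Of the hypoxia list 17 of 26 were higher and 2 lower, of immediate early genes 16 of 26 higher and 3 lower, and of interferon-stimulated genes 13 of 22 higher and 1 lower, beside 18.8% higher over all genes. Cholesterol genes had 14 of 24 higher and 1 lower against brain, and AHR targets 3 of 10 higher and 3 lower. The brain libraries were shallower and held more mouse RNA, and the part of these in the values was not tested.

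**Figure D5:**
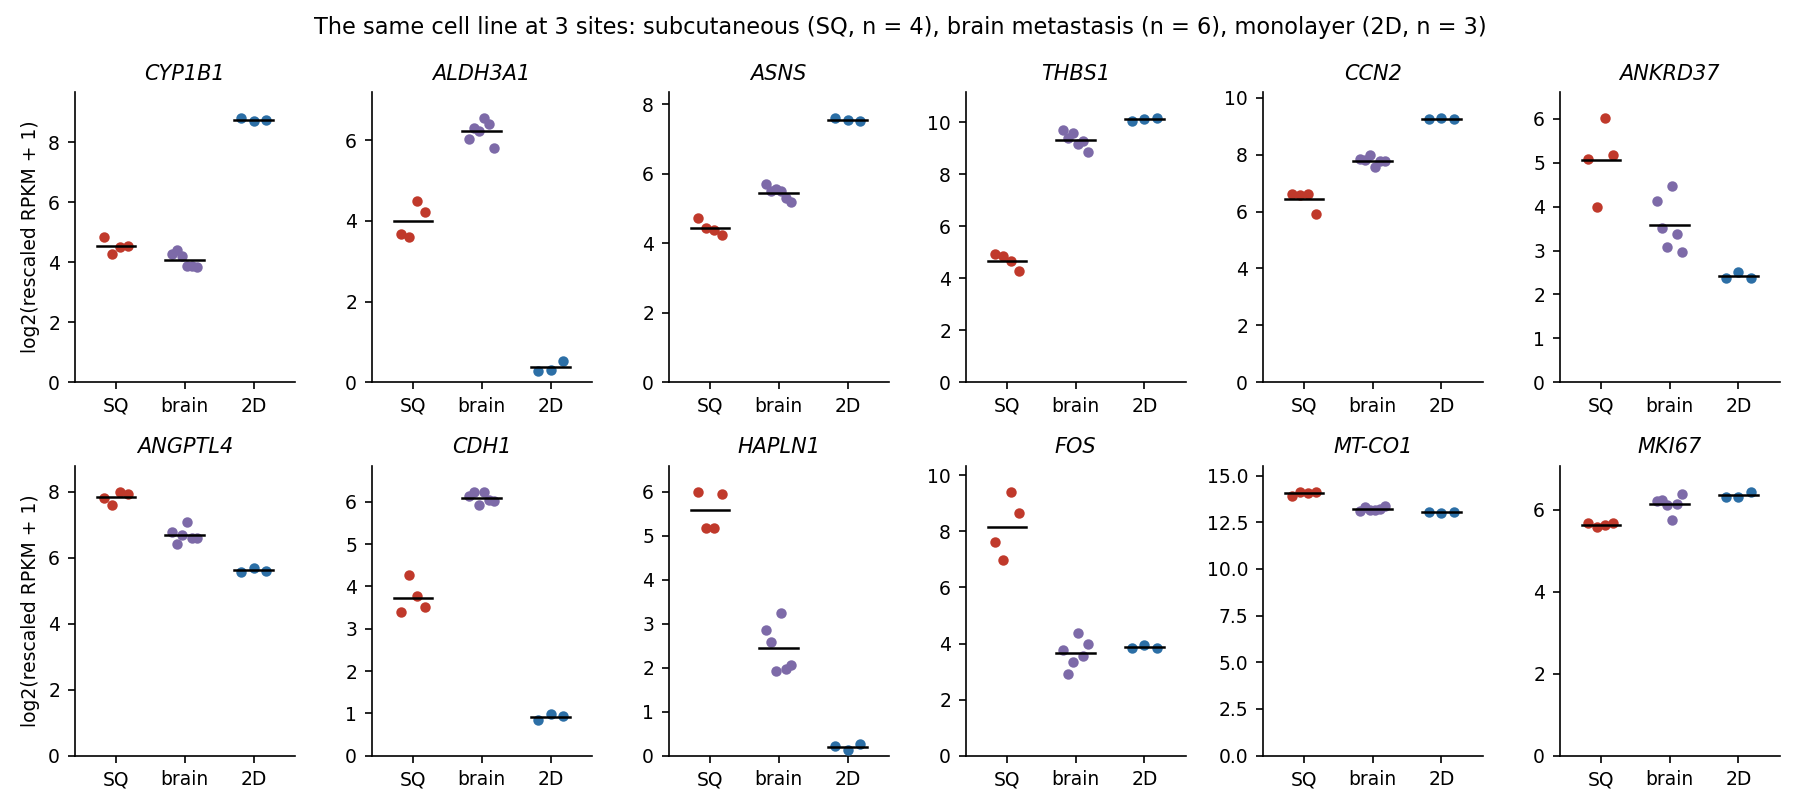
Log2(rescaled RPKM + 1) of 12 genes in subcutaneous tumours (SQ, n = 4), brain metastases (brain, n = 6) and monolayer culture (2D, n = 3); points are libraries and black bars are means on this scale, with axes from 0. CYP1B1 was low in both kinds of tumour, THBS1 was low only under the skin among these 3 sites, and CDH1 and ALDH3A1 were highest in brain metastases.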

How the data were processed

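RNA-seq of human cells in mouse tissue was read as separate human and mouse tables. The deposited values were RPKM that the authors computed per gene and species, with hg38 and mm10 as builds per the submitters' processing notes; the aligner, counter and strand setting were not given in the sources used here. Each library was rescaled to a sum of 1000000 over human genes. Genes with a level of at least 1 in at least 3 of 13 human-cell libraries (14557 of 34058) entered a single limma fit (version 3.58.1, R 4.3.3, with trend and robust variance) of log2(level + 1) on 4 groups, in which forebrain and hindbrain metastases are averaged for the brain contrast and all groups share the estimate of spread; p-values were adjusted by Benjamini and Hochberg over all genes tested. limma is the source of every adjusted p in the text.

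Low values of all libraries were whole multiples of a step, which gave whole reads per gene (tolerance 0.02); depths, host shares and a voom fit use those reads. The limma step was also run on simulated data with the same spread for all genes and few changed genes. That setting differs from these data, so it does not show how reliable the calls are here. Libraries of a group differed by more than the sampling noise of reads, with 12.95 to 24.01 times the chi-square that sampling alone gives between tumour libraries and 5.62 to 16.7 times between monolayer libraries, so none was taken as a library deposited again; this does not show that they came from separate samples. Named genes are the 12 largest called changes in each direction among coding genes whose higher group averages 5 or more and whose 7 libraries do not overlap, up to 5 called members per list and direction, and fixed members; other list members were named after their values were seen. The comparison, the 45 gene lists and the motifs were chosen with earlier results of these data known. Some genes and a promoter window that meet the rules are not reported here, and those of PHGDH, MTHFD2 and ANGPTL4 are given by their matches alone. Promoter windows are the 250 bases before the start of the canonical transcript in GENCODE 44 on hg38. The alternatives tried were other pseudocounts, filters and scalings, library weights, the 7 libraries alone, a replicate block, voom on reads, subtraction of reads expected from mouse RNA, and each library left out in turn. Figures were drawn with matplotlib 3.10.9, and tables with Python 3.11.15, pandas 2.3.3, NumPy 2.4.6 and SciPy 1.17.1.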

Additional observations from a re-analysis of the deposited data

Results flagged for a closer look

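Among 295 named genes, 22 had 1 of the 4 tumour libraries far from the other 3, by Dixon's 95% limit, which chance passes in about 1 group of 20. Tumour library 2 was the distant one in 10 genes, library 1 in 6, library 3 in 4 and library 4 in 2. All values below are rescaled RPKM in the distant library.

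Library 2 was above the others in MUC1 (284), C1S (136), ERN1 (104), OAS3 (58.6), C3 (10.6) and IFIH1 (7.16), and below them in SDC1 (222), NDUFA4 (193), SREBF2 (109) and CRELD2 (29.9). Library 1 was above the others in SLC7A5 (27.5), SEMA3D (10.9) and UBASH3B (10.3), and below them in ULK1 (39.0), SNED1 (28.4) and IRF9 (11.4). Library 3 was above the others in BMP7 (166), AMOTL1 (139), ITGA1 (17.99) and IER3 (6.83). Library 4 was above the others in NDUFS3 (79.6) and below them in CCN2 (59.5).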

How the results depend on the processing

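The main count of 7635 called genes became 7505 with a pseudocount of 0.1, 7657 with no filter, 6598 with a minimum of 5, 7677 on RPKM as deposited, 7533 with median-of-ratios scaling, 7469 with scaling to nuclear genes, 7540 with quantile normalization, 9442 with only the 7 libraries compared, 10116 with library weights, 9993 with voom on recovered reads, and 7622 after subtraction of reads expected from mouse RNA. Leaving out 1 of the 7 libraries gave 6349 to 7357. The replicate block gave 6661. Tumour and monolayer libraries with the same number had residual correlations of -0.28, 0.09 and -0.20. Those with unlike numbers spanned -0.25 to 0.34, so these values cannot tell whether the numbers pair the samples. The scaling alternatives moved the share of higher calls between 40.0 and 55.8%, against 41.1%.

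Of 295 named genes, 263 kept their direction and their side of the threshold under every alternative in which they were tested (292 of the 295 were tested with a minimum of 5 and 294 with a monolayer library left out), and 29 of the 292 called ones lost the call under at least 1. VEGFA, at -0.11 and not called, was 0.00625 with scaling to nuclear genes, which raised the median difference over all genes by 0.110. Of 90 counts of list members called higher or lower, 32 moved by over 1.5 times under at least 1 alternative. The part of depth in the tumour and monolayer values was not tested by matching reads; brain metastases had 3579907 to 6897852 human reads.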
